A study of Mus musculus with 4 samples.

Results

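RAB GTPases are small switch proteins that mark the membranes of the cell, and their transcripts were measured here in macrophages grown from mouse bone marrow. Members were all gene symbols that begin with Rab and a digit, which gave 67 of the 23259 symbols with a value. Of these, 58 are RAB GTPase genes and 9 are regulators or effectors that carry a RAB name. By the membrane each GTPase is best known for, 7 belong to early endosomes, 10 to late endosomes and lysosomes, 9 to recycling and 26 to the secretory route, of which 13 act at the endoplasmic reticulum and Golgi and 13 after the Golgi, and 6 fall in none of these. Many RAB proteins act on more than 1 membrane, so each was counted once, at its best-known site. The macrophages were from C57BL/6 mice aged 7 weeks, and all were exposed to the cytokine IL-4 for 24 h. Of the 4 libraries, 2 are labelled Sema6D-/-, for mice with both copies of Sema6d disrupted, the gene of a transmembrane semaphorin, and 2 are labelled wild type. How the gene was disrupted, whether each library is a mouse of its own and whether marrow was pooled are not in the labels. The spread behind every p-value is that between these samples alone, and it may be technical.

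A RAB protein cycles between a GDP-bound form held in the cytosol by GDI proteins and a GTP-bound form on a membrane. Exchange factors load GTP, activating proteins speed its hydrolysis, and effectors such as tethers and motors bind the GTP-bound form. In macrophages, the exchange of RAB5 for RAB7 on a phagosome or endosome accompanies its change from an early to a late, degradative compartment. RAB4 and RAB11 proteins return receptors to the surface, and RAB1, RAB6, RAB8 and RAB27 proteins act along the way from the endoplasmic reticulum to secretion.

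Values are FPKM, fragment numbers scaled by transcript length and library size, so levels can be compared between genes. Steps among the low values put the depth at about 8050000 and 8300000 fragments in Sema6D-/- libraries and 8700000 and 9000000 in wild type libraries. Sema6d was low throughout, at 0.106 and 0.315 FPKM in the libraries labelled Sema6D-/- and 0.166 and 0.389 FPKM under the label wild type. Its difference did not pass limma without a filter on low values (adjusted p = 0.788), so it does not check the labels. The sample titles begin with W under the label Sema6D-/- and with K under wild type, and the data at hand cannot tell whether the genotype labels were exchanged. Every direction below is that of the label and would turn if they were. The 8 macrophage markers, Csf1r among them, were all detected, with 1 called higher and 3 lower. They summed to 5269 and 5302 FPKM under Sema6D-/- and to 5888 and 5599 FPKM under wild type. Lyz2 made up the largest part, at 2445 and 2521 FPKM under Sema6D-/- and 3266 and 3133 FPKM under wild type. Cd68 went the other way, at 1551 and 1519 FPKM under Sema6D-/- and 1325 and 1193 FPKM under wild type. So did Emr1, at 481 and 459 FPKM under Sema6D-/- and 339 and 326 FPKM under wild type. The sum therefore follows its largest member and not every marker. The 11 neutrophil markers found summed to 779.6 and 640.2 FPKM under Sema6D-/- and to 229 and 220.4 FPKM under wild type, with 6 of the 10 tested called higher. The eosinophil, basophil and mast cell markers summed to 27.6 and 22.3 FPKM under Sema6D-/- and to 17.5 and 19.4 FPKM under wild type. Of the 4 tested, 3 were called higher and 1 lower. Over all genes tested, 4.80% were called higher and 4.91% lower by limma at an adjusted p under 0.05. Those of fibroblasts summed to at most 10.8 FPKM, and those of B, T and dendritic cells and of erythroid cells to at most 1.39 FPKM. In such bulk samples, fewer cells of a type and less RNA per cell cannot be told apart. The part of these other cells in the results below was not tested.

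The RAB repertoire of the cells was broad and covered every route. Of the 67 members, 47 averaged 1 FPKM or more and were tested, 15 had a lower mean, and 5 (Rab3c, Rab9b, Rab17, Rab25 and Rab39b) were listed at 0 in all libraries. Rab5c of early endosomes and Rab7 of late endosomes had the highest levels of all RAB GTPases, with means of 251 and 231 FPKM over the 4 libraries. Rab1b, Rab8b, Rab1 (now Rab1a) and Rab14 followed at 134, 125, 119 and 103 FPKM. Rab10 was next at 81.5 FPKM, and Rab31 followed at 75.8 FPKM. The classical granule-secretion gene Rab27a was at 0.717 FPKM on average and its paralogue Rab27b at 0.0568 FPKM.

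**Figure D1:**
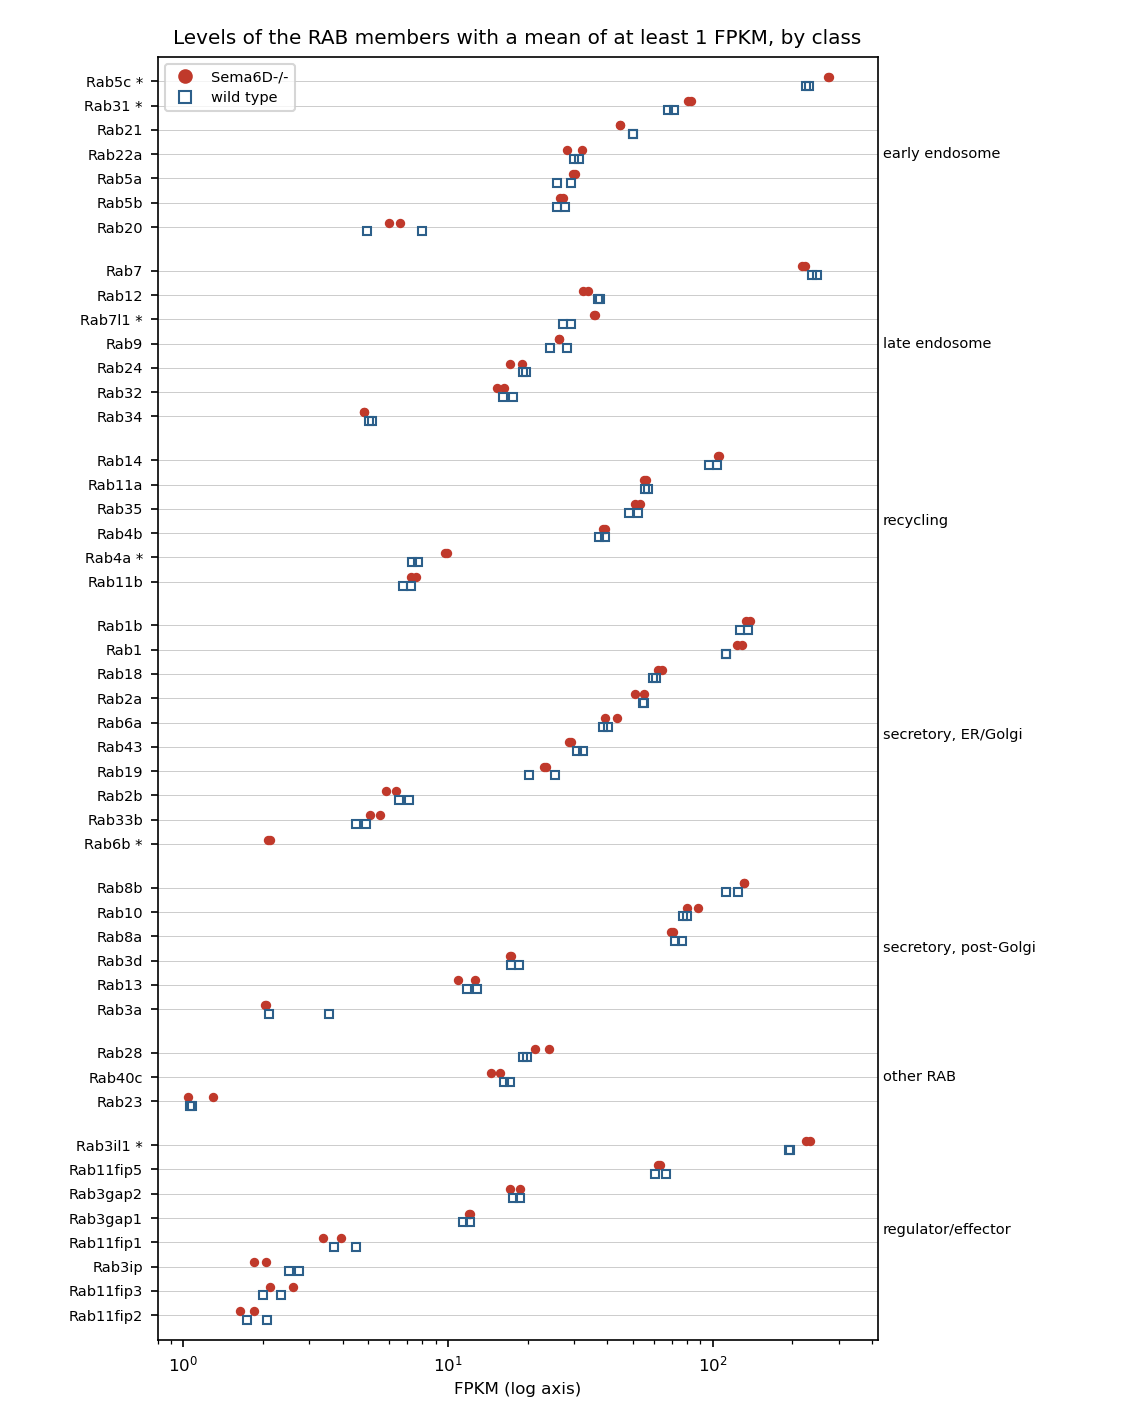
Level in FPKM, on a log axis, of the 47 RAB members with a mean of at least 1 FPKM, with filled circles for the 2 Sema6D-/- libraries and open squares for the 2 wild type libraries; an asterisk marks members past the threshold, and Rab6b is listed at 0 in both wild type libraries, which a log axis cannot show. Levels run from about 1 FPKM for Rab23 to 275 FPKM for Rab5c, and within most members the 4 libraries lie close together.

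Most RAB members differed little between the labels, as did the typical gene. The median absolute difference in log2(FPKM + 1) was 0.09 for 38 tested RAB GTPases without Rab6b and 0.11 for all genes tested. At an adjusted p under 0.05 by limma, 6 of the 47 tested members were higher in the libraries labelled Sema6D-/- and 0 were lower. These were the GTPase genes Rab5c, Rab31, Rab7l1, Rab4a and Rab6b and the exchange factor gene Rab3il1. They make up 12.8% of the members tested, where 9.72% of all 10115 genes tested passed in either direction, 4.80% higher and 4.91% lower. Rab6b passed the filter on low values only through the libraries in which it was high, and without it the count is 5 of 46, or 10.9%. At an unadjusted p under 0.05 there were 12 members, 8 higher and 4 lower (Rab7, Rab12, Rab21 and Rab3ip), which is 25.5% of the members tested, against 25.1% of all genes tested (2535 of 10115). The median difference of the 47 members in log2(FPKM + 1) was 0.01, against 0.003 for all genes tested. The libraries of the labels did not overlap for 15 members that were higher and 12 that were lower under Sema6D-/-, or 27 of 47, where 56.2% of all genes tested did not overlap (28.8% of genes tested were higher in this way and 27.4% lower). The called members other than Rab6b differed by 1.18 to 1.31-fold in mean FPKM. These calls depended on the fit: without a filter on low values Rab5c and Rab6b passed and the other 4 did not, and with eBayes without trend Rab6b alone passed.

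**Figure D2:**
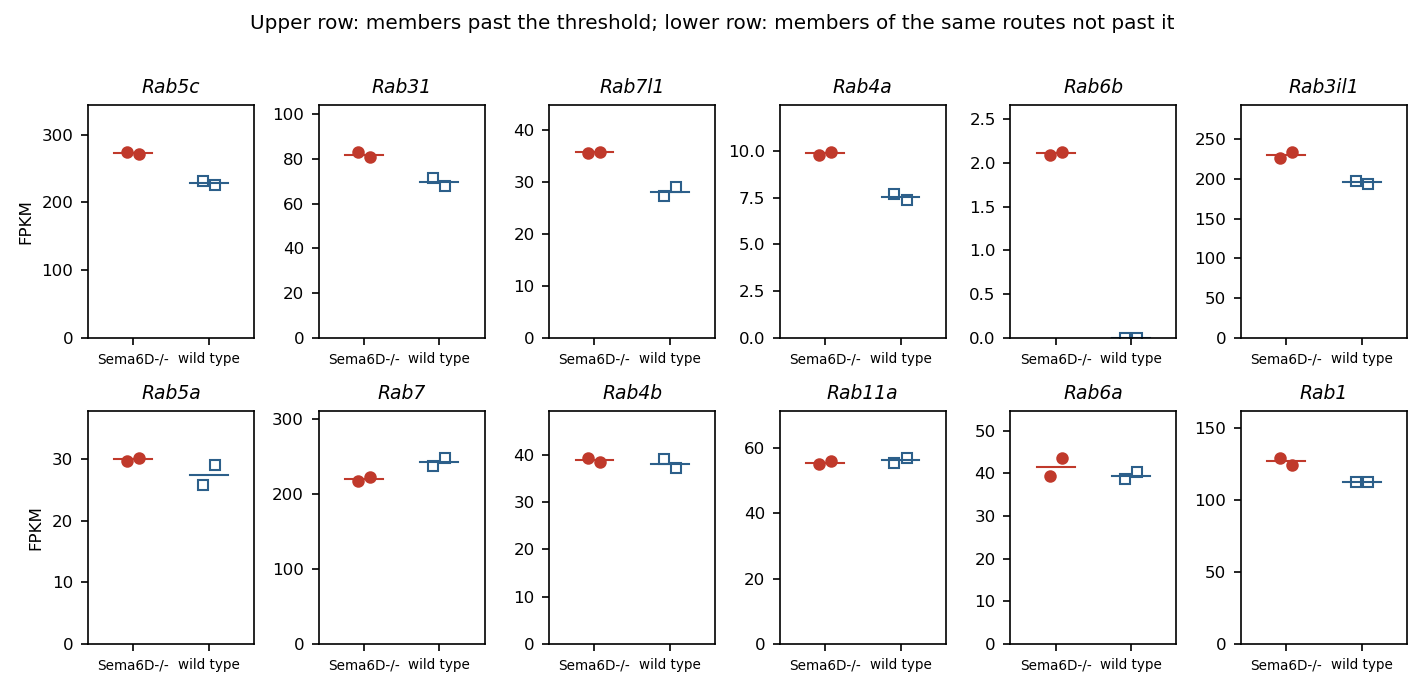
FPKM of 12 RAB members in each library, with Sema6D-/- left and wild type right in each panel, horizontal lines at the means and axes from 0. In the upper row, Rab5c, Rab31, Rab7l1, Rab4a, Rab6b and Rab3il1, the libraries of the labels do not overlap. The same holds for 56.2% of all genes tested. In the lower row, members of the same routes, Rab4b, Rab11a and Rab6a overlap. Rab5a and Rab1 are higher and Rab7 is lower under Sema6D-/-, each without overlap.

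The windows of 250 bases before the annotated starts of 4 members are shown because they let the called members Rab5c, Rab31 and Rab3il1 be set beside Rab5a, a paralogue of Rab5c that did not pass the test. They are from RefSeq on GRCm38.p6, the assembly that mm10 names, and are written in the direction of transcription. Rab5c is at chr11:100738216-100738465 on the minus strand, Rab5a at chr17:53478984-53479233 on the plus strand, Rab31 at chr17:65772753-65773002 on the minus strand and Rab3il1 at chr19:10017944-10018193 on the plus strand. Capitals mark the hexamer CACGTG, the E-box at the core of the element that TFEB-family factors of lysosomal genes bind.
Rab5c: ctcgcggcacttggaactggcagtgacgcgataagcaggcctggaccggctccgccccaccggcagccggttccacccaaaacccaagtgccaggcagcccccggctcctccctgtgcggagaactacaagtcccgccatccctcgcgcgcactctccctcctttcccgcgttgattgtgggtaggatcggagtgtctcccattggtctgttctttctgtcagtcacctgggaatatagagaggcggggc
Rab5a: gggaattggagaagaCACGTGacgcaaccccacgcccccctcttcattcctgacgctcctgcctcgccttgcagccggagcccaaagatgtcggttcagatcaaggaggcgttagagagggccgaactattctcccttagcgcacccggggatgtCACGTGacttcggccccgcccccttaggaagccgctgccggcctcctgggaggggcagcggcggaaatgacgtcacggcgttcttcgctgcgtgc
Rab31: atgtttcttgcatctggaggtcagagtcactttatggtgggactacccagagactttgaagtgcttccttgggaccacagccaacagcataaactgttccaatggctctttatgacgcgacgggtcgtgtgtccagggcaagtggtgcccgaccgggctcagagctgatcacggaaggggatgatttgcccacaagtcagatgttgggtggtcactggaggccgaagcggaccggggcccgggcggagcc
Rab3il1: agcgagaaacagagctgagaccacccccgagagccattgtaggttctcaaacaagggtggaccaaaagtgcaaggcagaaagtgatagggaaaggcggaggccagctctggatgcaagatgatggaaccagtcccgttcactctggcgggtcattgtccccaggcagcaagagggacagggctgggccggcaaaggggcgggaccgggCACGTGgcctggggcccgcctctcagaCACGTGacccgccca
Rab5a and Rab3il1 each hold the hexamer 2 times and Rab5c and Rab31 do not hold it. The window of Rab3il1 is 1 of 5 given for its starts. An overlapping window, chr19:10018001-10018250, also holds the hexamer 2 times. Those at chr19:10001419-10001668, chr19:10001475-10001724 and chr19:10014797-10015046 do not hold it. A STAT6-type motif, TTC and GAA with 4 bases of any kind between them, was in none of the windows printed. The windows of the called members Rab6b and Rab7l1 are not printed and hold neither motif. For the called member Rab4a no window was available. Both motifs were searched on both strands, on which they read the same. Of 55 members with a promoter in the table, 7 held CACGTG in at least 1 promoter (12.7%, against 6.86% of 27025 genes) and 2 held the STAT6-type motif (3.64%, against 6.76%). Members and all genes were not matched for base content, and the shares were not tested. The 7 were Rab5a, Rab20, Rab21, Rab23, Rab27a, Rab3gap2 and Rab3il1, and of these Rab3il1 alone passed the test. The 2 with the STAT6-type motif were Rab5b and Rab11b, with differences of 0.01 and 0.08 in log2(FPKM + 1) that did not pass. These matches describe letters in a window and show no binding.

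Among the early endosome genes, 2 of 7 were called higher under Sema6D-/- and 0 lower, against 4.80% and 4.91% of all genes tested. Rab5c, a paralogue of the early endosome fusion GTPase Rab5a, lies on chromosome 11 from 100715003 to 100738215. It had 275 and 272 FPKM in Sema6D-/- libraries, against 232 and 226 FPKM in wild type libraries. Both Sema6D-/- libraries thus lay above both wild type libraries, with a difference of 0.26 ± 0.04 (SE) in log2(FPKM + 1) and adjusted p = 0.0223 by limma. Rab31, which acts between the trans-Golgi and endosomes and on phagosomes, lies on chromosome 17 from 65651726 to 65772752. It had 83.2 and 80.7 FPKM in Sema6D-/- libraries, against 71.3 and 68.0 FPKM in wild type libraries. This was a difference of 0.23 ± 0.05 (SE; limma adjusted p = 0.0460), again without overlap. Without any 1 of the 4 libraries, neither gene passed: adjusted p was 0.0526 to 0.154 for Rab5c and 0.0762 to 0.236 for Rab31 by limma. Their differences then ranged from 0.24 to 0.28 and from 0.20 to 0.27, and with fewer libraries the test is weaker.

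The other early endosome genes did not pass. Rab5a, the best-known GTPase of endosome fusion, had 29.7 and 30.2 FPKM in Sema6D-/- libraries, against 25.8 and 29.1 FPKM in wild type libraries (limma adjusted p = 0.354). Its paralogue Rab5b averaged 26.8 ± 0.55 FPKM in Sema6D-/- libraries and 26.7 ± 1.3 FPKM in wild type libraries (SD, n = 2 each; adjusted p = 0.951). Rab20, of phagosome maturation, and Rab22a, of sorting to recycling, overlapped between the labels. Rab21, which carries integrins, had 44.7 and 44.8 FPKM in Sema6D-/- libraries, against 49.9 and 49.9 FPKM in wild type libraries. Its groups did not overlap, and its difference of -0.15 ± 0.05 missed the threshold (adjusted p = 0.110). Rab5c made up 82.9% and 82.8% of the summed RAB5 FPKM in Sema6D-/- libraries, against 81.8% and 79.9% in wild type libraries, so it was the main RAB5 transcript under either label. None of the 50-base words of Rab5c or Rab31 transcripts occurs in another annotated transcript, while 9.80% of those of Rab5b also occur in Gm13991, which leaves the level of Rab5b less certain.

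Among the late endosome and lysosome genes, 1 of 7 tested was called higher and 0 lower, against 4.80% and 4.91% of all genes tested. The called gene was Rab7l1, now Rab29, a GTPase of lysosomes and the trans-Golgi that recruits the kinase LRRK2. It lies on chromosome 1 from 131867210 to 131872887. It had 35.6 and 35.9 FPKM in Sema6D-/- libraries, against 27.3 and 29.1 FPKM in wild type libraries. The groups did not overlap, and the difference was 0.33 ± 0.06 (SE; limma adjusted p = 0.0255). It passed without wild type replicate 2 (adjusted p = 0.0478) and did not pass without any 1 of the other libraries (adjusted p up to 0.158), with differences of 0.29 to 0.38.

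Rab7, the main late endosome GTPase, did not pass. It had 217 and 223 FPKM in Sema6D-/- libraries, against 237 and 248 FPKM in wild type libraries (-0.14 ± 0.05, limma adjusted p = 0.136). Rab12, which carries receptors from recycling endosomes to lysosomes, had 33.9 and 32.4 FPKM in Sema6D-/- libraries, against 36.9 and 37.7 FPKM in wild type libraries (-0.17 ± 0.05, adjusted p = 0.127). In both genes the Sema6D-/- libraries lay below the wild type libraries, by amounts that missed the adjusted threshold. Their unadjusted p was under 0.05 by limma, as for 25.1% of all genes tested. Rab9, which returns receptors from late endosomes to the trans-Golgi, averaged 26.2 ± 0.014 FPKM in Sema6D-/- libraries and 26.2 ± 2.7 FPKM in wild type libraries (SD, n = 2 each). The remaining tested genes, Rab24, Rab32 and Rab34, had differences of -0.10 to -0.07. Of the Rab7 words, 11.2% are shared with other transcripts, nearly all with the pseudogene Rab7-ps1. For Rab9 the share is 6.20%, with Rab9b-ps1.

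Among the recycling genes, 1 of 6 tested was called higher and 0 lower, against 4.80% and 4.91% of all genes tested. The called gene was Rab4a, the GTPase of fast recycling from early endosomes, on chromosome 8 from 123805846 to 123835291. It had 9.77 and 9.96 FPKM in Sema6D-/- libraries, against 7.69 and 7.35 FPKM in wild type libraries. With a difference of 0.35 ± 0.07 (SE; limma adjusted p = 0.0428) and groups apart, this was the largest called difference among GTPase genes with values in all 4 libraries. By the estimated depth, these values rest on at most about 138 and 145 fragments in Sema6D-/- libraries and 117 and 116 in wild type libraries. Without any 1 library its adjusted p was 0.110 to 0.220. Rab4b, its more abundant paralogue, averaged 39.0 ± 0.59 FPKM in Sema6D-/- libraries and 38.2 ± 1.3 FPKM in wild type libraries (SD, n = 2 each; adjusted p = 0.752), so Rab4a made up 19.9% and 20.5% of the RAB4 sum under Sema6D-/- and 16.4% and 16.5% under wild type. Of the Rab4b words, 58.1% also lie in other transcripts, chiefly Gm21983, which overlaps it, and its level is therefore uncertain.

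The slow-recycling genes showed no called difference. Rab11a had 55.0 and 55.9 FPKM in Sema6D-/- libraries, against 55.4 and 56.9 FPKM in wild type libraries, and the groups overlapped. Rab11b, its paralogue, had 7.57 and 7.28 FPKM in Sema6D-/- libraries, against 6.75 and 7.23 FPKM in wild type libraries. Of the Rab11b words, 9.47% are shared with other transcripts, chiefly Rab11b-ps2. Rab11a made up 87.9% to 89.1% of the RAB11 sum in every library, and Rab25, the epithelial member, was listed at 0. Rab14, which links early endosomes and the Golgi, had 105 and 106 FPKM in Sema6D-/- libraries, against 104 and 96.9 FPKM in wild type libraries, and did not pass (limma adjusted p = 0.479). Rab35, a plasma membrane recycling GTPase, averaged 52.0 ± 1.4 FPKM in Sema6D-/- libraries and 50.4 ± 2.9 FPKM in wild type libraries (SD, n = 2 each).

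Among the secretory genes, 1 of 16 tested was called higher and 0 lower, against 4.80% and 4.91% of all genes tested. Rab6b, a Golgi GTPase best known from neurons, lies on chromosome 9 from 103111667 to 103185276. It was at 2.09 and 2.13 FPKM in Sema6D-/- libraries and listed at 0 in both wild type libraries. The values under Sema6D-/- equal at most about 85 and 89 fragments, and no fold is given against values listed at 0. Its fitted difference of 1.64 ± 0.15 (SE; limma adjusted p = 0.00473) depends on the added pseudocount, and its mean of 1.06 FPKM passed the filter only through the Sema6D-/- libraries, so it had to differ. The row of Rab6b also stands out of the alphabetical order of the files, between Gpx3 and Oat, and no other RAB member does so. Rab6a, the widely expressed paralogue, averaged 41.5 ± 3.0 FPKM in Sema6D-/- libraries and 39.5 ± 1.1 FPKM in wild type libraries (SD, n = 2 each; adjusted p = 0.575). None of the 50-base words of Rab6b occurs in another annotated transcript, Rab6a included. On the opposite strand, Rab6a overlaps Mrpl48, Rab7 overlaps Gm5577 and Rab5a overlaps Pp2d1. Rab10, Rab11b, Rab24 and Rab2b are among the other members with such an overlap. Since the strand setting of the quantification is not stated, reads of such pairs may be mixed.

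The abundant genes of transport between endoplasmic reticulum and Golgi did not pass. Rab1, now Rab1a, had 129 and 124 FPKM in Sema6D-/- libraries, against 112 and 112 FPKM in wild type libraries. The groups did not overlap, and the difference of 0.17 ± 0.04 missed the threshold (limma adjusted p = 0.0747). Rab1b, its paralogue, averaged 136 ± 2.5 FPKM in Sema6D-/- libraries and 131 ± 6.4 FPKM in wild type libraries (SD, n = 2 each). Rab18, a GTPase of the endoplasmic reticulum and lipid droplets, averaged 63.3 ± 1.6 FPKM in Sema6D-/- libraries and 60.3 ± 1.1 FPKM in wild type libraries (SD, n = 2 each; adjusted p = 0.430). The other 5 tested genes of this group, Rab2a, Rab2b, Rab19, Rab33b and Rab43, had differences of -0.14 to 0.15. Of the Rab43 words, 74.5% lie in the overlapping transcript Gm45140, so its level is uncertain.

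None of the 6 tested post-Golgi and granule genes passed limma at the adjusted threshold or at an unadjusted p under 0.05, which 25.1% of all genes tested passed. Rab8b, of transport from the trans-Golgi to the surface, had 131 and 131 FPKM in Sema6D-/- libraries, against 112 and 125 FPKM in wild type libraries (adjusted p = 0.230). Its paralogue Rab8a averaged 70.3 ± 0.59 FPKM in Sema6D-/- libraries and 74.5 ± 3.4 FPKM in wild type libraries (SD, n = 2 each; adjusted p = 0.391). Rab10, of surface delivery, averaged 84.4 ± 5.8 FPKM in Sema6D-/- libraries and 78.6 ± 2.2 FPKM in wild type libraries (SD, n = 2 each; adjusted p = 0.388). Among the RAB3 genes of regulated exocytosis, Rab3d was the main one, at 83.8% to 89.4% of their sum in the 4 libraries.

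Several members lay below the filter, where few fragments support a value. Rab27a, of granule secretion, had 0.916 and 0.653 FPKM in Sema6D-/- libraries, against 0.874 and 0.427 FPKM in wild type libraries, and was the member just below the filter, with Rab6b and Rab23 (mean 1.12 FPKM) just above it. Rab27b was at no more than 0.116 FPKM in any library. Rab15, of early and recycling endosomes, and Rab44, of granule secretion, were picked after their values were seen. Rab15 had 0.113 and 0.109 FPKM in Sema6D-/- libraries, against 1.65 and 0.404 FPKM in wild type libraries, or at most about 4 and 4 fragments against 66 and 17. Rab44 had 0.818 and 0.381 FPKM in Sema6D-/- libraries, against 0.232 and 0.151 FPKM in wild type libraries. The neutrophil marker sums, 779.6 and 640.2 against 229 and 220.4 FPKM, were also higher under Sema6D-/-, and their part in this was not tested. Neither passed in the limma fit without a filter (adjusted p = 0.288 for Rab15 and 0.248 for Rab44), in which 3.44% of 14653 genes were called, 1.75% higher and 1.69% lower.

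The 3 tested GTPases outside these classes did not pass. Rab28, of cilia and phagocytosis, had 21.3 and 24.2 FPKM in Sema6D-/- libraries, against 19.9 and 19.2 FPKM in wild type libraries (limma adjusted p = 0.186). Rab40c, an adaptor of a ubiquitin ligase, averaged 15.2 ± 0.87 FPKM in Sema6D-/- libraries and 16.7 ± 0.60 FPKM in wild type libraries, and Rab23, of Hedgehog signalling and cilia, 1.17 ± 0.18 FPKM in Sema6D-/- libraries and 1.07 ± 0.013 FPKM in wild type libraries (SD, n = 2 each).

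Of the 8 tested regulators and effectors with a RAB name, 1 was called higher and 0 lower, against 4.80% and 4.91% of all genes tested. Rab3il1, an exchange factor related to the RAB8 activator Rabin8, lies on chromosome 19 from 10001669 to 10038380. It had 226 and 234 FPKM in Sema6D-/- libraries, against 197 and 194 FPKM in wild type libraries, levels near those of Rab5c and Rab7. The groups did not overlap, with a difference of 0.23 ± 0.04 (SE; limma adjusted p = 0.0306). Without any 1 library its adjusted p was 0.0803 to 0.168. Rab3ip, the gene of Rabin8 itself, had 1.86 and 2.05 FPKM in Sema6D-/- libraries, against 2.51 and 2.73 FPKM in wild type libraries, a difference that missed the threshold (adjusted p = 0.197). The RAB11 effector genes Rab11fip1, Rab11fip2, Rab11fip3 and Rab11fip5 and the RAB3 GAP subunit genes had differences of -0.13 to 0.08.

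**Figure D3:**
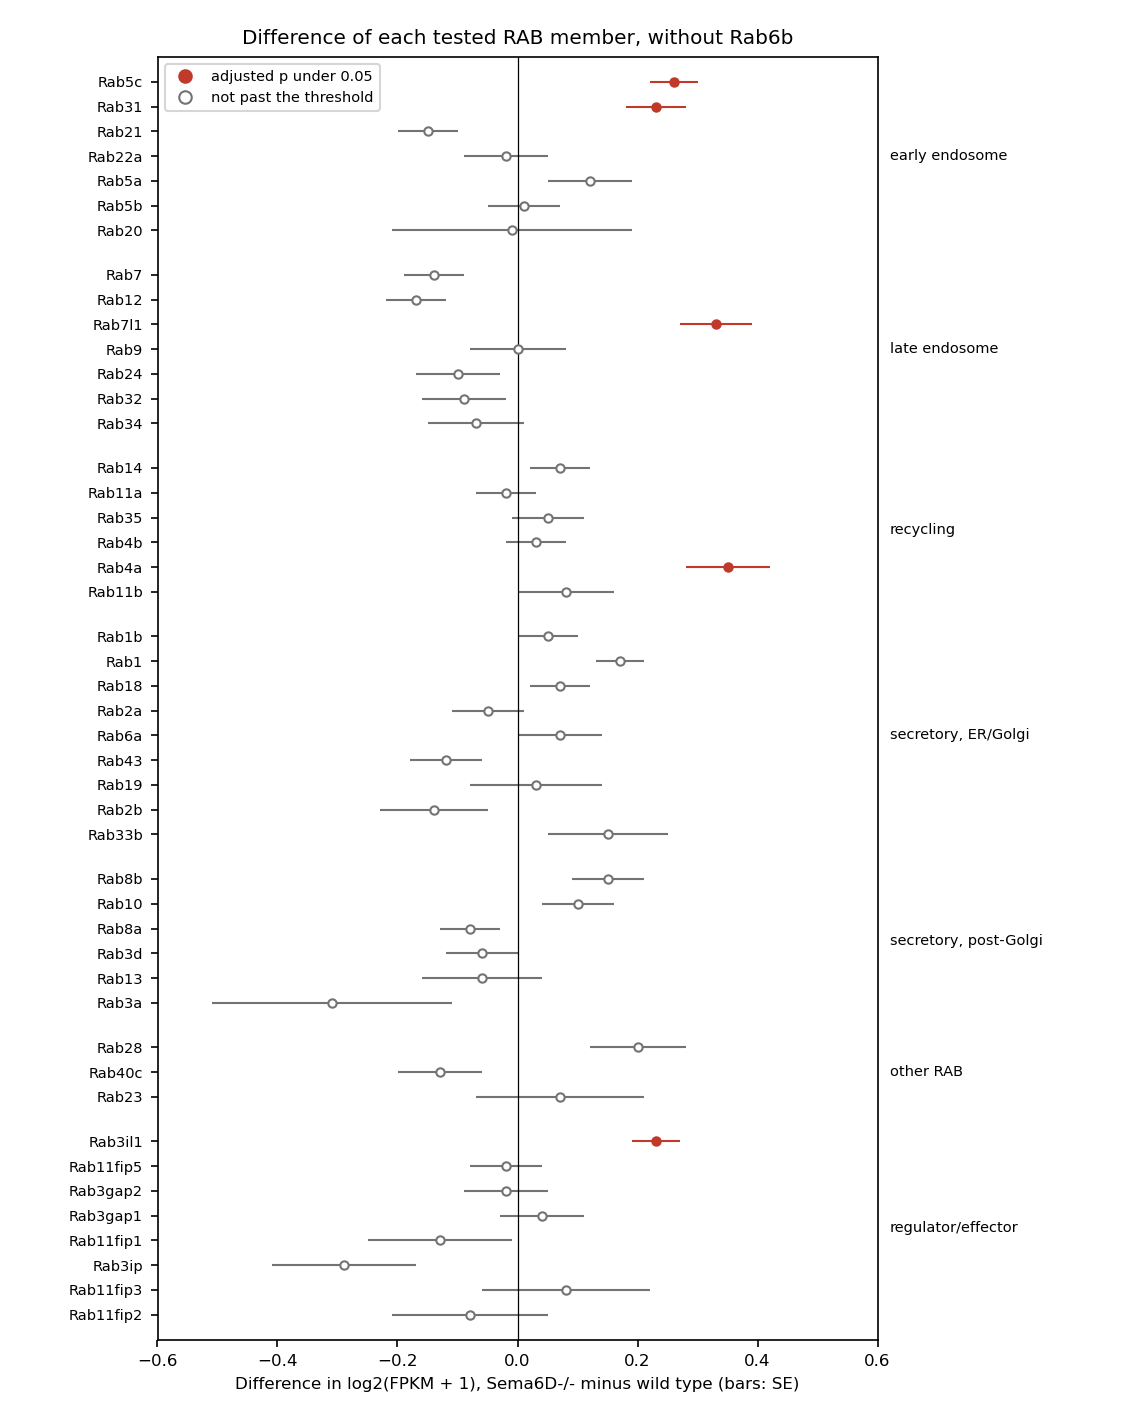
Difference in log2(FPKM + 1), Sema6D-/- minus wild type, of the 46 tested RAB members other than Rab6b, with bars of 1 SE and members grouped by class; filled points passed an adjusted p under 0.05. Rab5c, Rab31, Rab7l1, Rab4a and Rab3il1 lie between 0.23 and 0.35, and the other members lie between -0.31 and 0.20.

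Summed over genes, the 26 secretory genes had the highest total under either label, at 804 and 806 FPKM in Sema6D-/- libraries and 767 and 773 FPKM in wild type libraries. The 7 early endosome genes summed to 495 and 493 FPKM in Sema6D-/- libraries, against 442 and 436 FPKM in wild type libraries, a ratio of 1.12. The 10 late endosome and lysosome genes summed to 354 and 356 FPKM in Sema6D-/- libraries, against 369 and 384 FPKM in wild type libraries, a ratio of 0.942. Recycling genes summed to 268 and 271 FPKM in Sema6D-/- libraries and to 263 and 258 FPKM in wild type libraries. Endoplasmic reticulum and Golgi genes summed to 489 and 484 FPKM in Sema6D-/- libraries, against 470.3 and 458 FPKM in wild type libraries, a ratio of 1.05, and the ratio for post-Golgi genes was 1.04. These sums are dominated by a few genes, such as Rab5c and Rab7, and were not tested; 2 libraries against 2 allow no exact permutation p below 0.333.

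**Figure D4:**
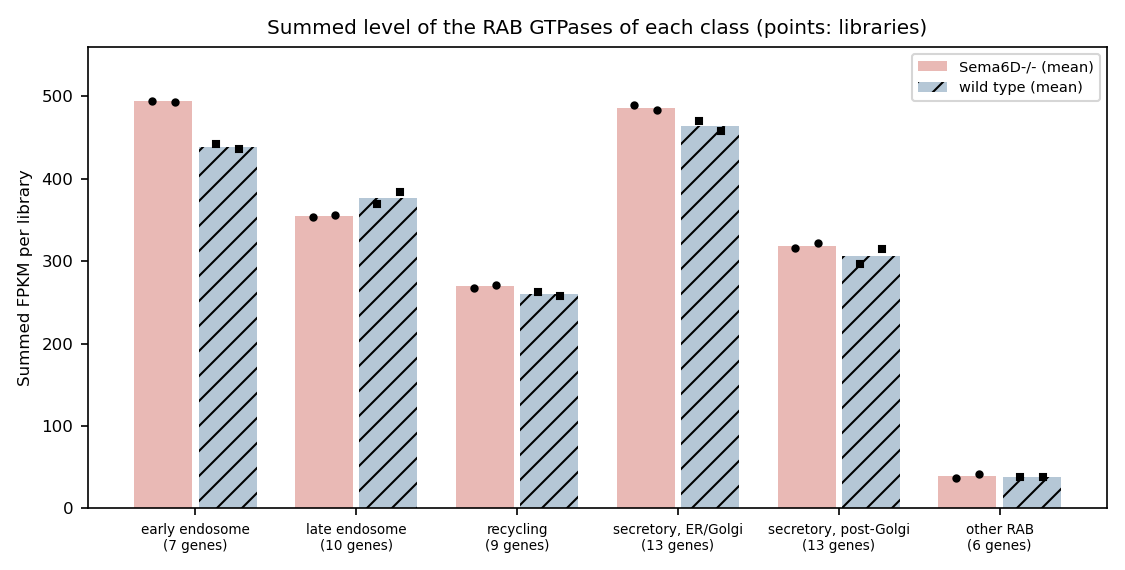
Summed FPKM of the RAB GTPase genes of each class, with bars at the mean of the 2 Sema6D-/- libraries (left) and of the 2 wild type libraries (hatched, right) and points for single libraries. The early endosome sums are 495 and 493 FPKM under Sema6D-/-, above 442 and 436 FPKM under wild type, and the late endosome sums are 354 and 356 FPKM, below 369 and 384 FPKM.

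The machinery around the RAB proteins was read from 7 lists with 151 genes, of which 133 were tested. Of these, 3 were called higher under Sema6D-/- and 2 lower, where 9.72% of all genes tested passed, and the median difference was 0.02. None of the 8 membrane cycle genes, such as the GDI genes, and none of the 18 recycling and 12 secretory effector genes passed. Of 27 GTPase-activating protein genes, 1 was higher. This was Usp6nl, an activating protein for RAB5, with 7.53 and 7.58 FPKM in Sema6D-/- libraries, against 2.82 and 3.22 FPKM in wild type libraries (2.50-fold, difference 1.09 ± 0.10, limma adjusted p = 0.00461). Without Sema6D-/- replicate 1 its adjusted p was 0.0593, and it passed without any 1 of the other libraries. Like that of Rab6b, its row stands out of the alphabetical order of the files.

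Of 16 early endosome effector genes, 1 was higher. This was Snx3, a sorting nexin of early endosomes, with 216 and 217 FPKM in Sema6D-/- libraries, against 179.7 and 172 FPKM in wild type libraries (0.30 ± 0.04, limma adjusted p = 0.0174). Of 17 late endosome effector genes, 1 was higher and 1 lower. Vps39, a subunit of the HOPS tether that works with RAB7, had 22.2 and 22.5 FPKM in Sema6D-/- libraries, against 17.3 and 16.6 FPKM in wild type libraries (0.38 ± 0.06, adjusted p = 0.0195). Fyco1, which links RAB7 membranes to kinesin, had 3.28 and 3.08 FPKM in Sema6D-/- libraries, against 6.02 and 5.20 FPKM in wild type libraries (-0.66 ± 0.11, adjusted p = 0.0226). Of 35 exchange factor genes, 1 was lower: Dennd2d, a DENN-domain exchange factor gene, had 1.66 and 1.32 FPKM in Sema6D-/- libraries, against 2.65 and 2.96 FPKM in wild type libraries (-0.62 ± 0.13, adjusted p = 0.0487). With 1 library left out, the adjusted p was at most 0.129 for Snx3, 0.141 for Vps39, 0.132 for Fyco1 and 0.178 for Dennd2d; each lost its call without 1 or more libraries and kept its direction.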

How the data were processed

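The authors deposited 1 table of FPKM (fragments scaled by length and library size) per library for 23284 symbols, 25 of them without a value. Per the submitters' processing notes, TopHat2 2.0.13, Bowtie2 2.2.3, SAMtools 0.1.19 and Cuffnorm 2.2.1 and the build mm10 were used; the annotation and strand setting behind the values are, in the sources used here, not stated. RNA was extracted with a miRNA kit and libraries were strand-specific, per the labels' protocols. Cuffnorm normalizes between libraries, so depth was estimated from the steps of low values and GENCODE M21 exon lengths (57.6% to 64.6% of values within 0.1 of a whole number of fragments), and fragment numbers are approximate.

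Genes averaging 1 FPKM or more were compared with limma 3.58.1 in R 4.3.3 (lmFit, eBayes with trend, two-sided) on log2(FPKM + 1), a scale that understates changes of low genes, with Benjamini-Hochberg adjustment over all 10115 genes and a threshold of 0.05. The script was tested on simulated data, with planted changes larger than those of the called RAB members other than Rab6b. Calls of their size were therefore not covered by it. Members, classes and lists were chosen with earlier results of these data known. Named were members past the threshold, class leaders, the 3 highest of each class and list genes past the threshold. Alternatives were other pseudocounts, filters, scalings and eBayes settings, each library left out, and the title number as a block. A planned comparison of RAB proteins was not made. Of 151 list genes, 3 were found under another symbol. Shared sequence was counted as words of 50 bases in GENCODE transcripts.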

Additional observations from a re-analysis of the deposited data

How the results depend on the processing

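The 5 called RAB members other than Rab6b kept their direction in all 13 alternatives, and their calls depended on the settings. The number called higher, 6, counts Rab6b, which had to differ. It became 2 when no filter was set (Rab5c and Rab6b). When eBayes ran without trend, and with the replicate block, it was 1 (Rab6b alone). Over all genes tested, 486 higher and 497 lower became 256 and 248 when no filter was set, and 261 and 327 when eBayes ran without trend. With 1 library left out, 72 to 276 were higher and 87 to 290 lower. With the replicate block 300 genes were higher and 337 lower. The title numbers share no stated source and deviations of same-numbered libraries correlated at -0.018, so the block does not describe a pairing. On the 7 lists, 0 to 2 were higher and 0 to 2 lower with 1 library left out, and 1 was lower with a pseudocount of 0.1, after quantile normalization or with the block, 0 without a filter or with a mean of at least 5 FPKM. Quantile normalization turned the uncalled differences of Rab5b (-0.00141) and Rab9 (-0.00778). Leaving out 1 library gave ranges that cross 0 for Rab1b (-0.00158 to 0.0970), Rab23 (-0.0155 to 0.155), Rab35 (-0.0110 to 0.104), Rab4b (-0.00281 to 0.0673), Rab5b (-0.0382 to 0.0540), Rab6a (-0.00184 to 0.14) and Rab9 (-0.0970 to 0.106). The cause of these changes was not tested, beyond that fewer libraries weaken a test. Depth limits members under 1 FPKM, which rest on few fragments.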

Other observations

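The 4 files list their rows in the same order, which is alphabetical except for 213 rows. Of these rows, 212 were tested and 209 passed limma at an adjusted p under 0.05, or 98.6%, against 9.72% of all genes tested. Read from the top of the file, the 121 of them that were lower under the label Sema6D-/- come first and the 91 that were higher come after them, and the position correlates with the difference (Spearman's rho 0.97 over these rows, which share the 4 libraries and are not independent). Rab6b and Usp6nl are the only genes of the RAB members and RAB-linked lists among them. Symbol and value are taken as the rows give them, and whether the values of these rows belong to their symbols was not tested.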
